A study of Mus musculus with 72 samples.

Results

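*Wwox* and *Ccser1* are long genes whose human counterparts lie at common fragile sites, and their mouse loci were examined here for DNA double-strand break (DSB) junctions in neural progenitor cells. The loci are 2 of 107 recurrent DNA break clusters (RDCs), those of the study's larger set that it assigns to a late constant or a transition class of replication timing. Members were chosen by name and interval, with no threshold on their values, although earlier results of these data were known. For *Wwox* the interval was the 1 Mb RDC window on chromosome 8 (114300001 to 115300000, GRCm38/mm10), and for *Ccser1* it was the gene body on chromosome 6 (61180324 to 62382865, 1.20 Mb). Across 60 libraries of LAM-HTGTS, a sequencing assay for translocations, 148 junctions mapped to the *Wwox* interval and 439 to the *Ccser1* interval, out of 591366 on the assembled chromosomes. LAM-HTGTS cuts 1 site, the bait, with Cas9 and reads from there into whatever genomic end, the prey, was joined to it.

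The cells were of 2 genotypes. XP cells were neural progenitors derived from embryonic stem cells of a single line, Nxp010, whose labelled genotype is NestinCre+Xrcc4-/-p53-/-, and 45 libraries came from them. WT cells were primary neural stem and progenitor cells from C57BL/6J embryos at embryonic day 17.5, with 15 libraries. Every culture was kept for 72 h and then 24 h in its treatment. Aphidicolin was given at 0.5 µM and then 0.25 µM, ART558 at 5 µM and then 2.5 µM, and DMSO was the solvent control. XP cells received DMSO (18 libraries), ART558 (9), aphidicolin (9) or both drugs (9), whereas WT cells received aphidicolin (7) or both drugs (8), so that no WT library lacks aphidicolin. The titles of 14 XP libraries lack the words theta collection that all other titles carry. These are treated here as a separate set, called the promoter and enhancer set. It holds 7 libraries in DMSO with the chr6 bait, and 4 in DMSO and 3 in aphidicolin with the chr14 bait. The baits lay on chromosomes 6, 8, 12 and 14, with the last used in XP cells for DMSO and aphidicolin only, and WT cells carried the chromosome 6 or 14 bait. All XP cells lacked Xrcc4, a core factor of non-homologous end joining (NHEJ), and p53, and the study's text also gives this line a subclonal gain of chromosome 8, which holds *Wwox*. By the same text that gain was gone after aphidicolin plus ART558, where part of the cells had instead lost chromosome 6, which holds *Ccser1*. Copy number was not measured in the libraries used here, and its part in the densities was not tested. The study's reporting summary calls the XP libraries of a bait and condition technical repeats and the WT ones biological repeats, whereas a legend speaks of independent biological replicates for the former. The p-values for XP cells may therefore measure technical spread.

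*Wwox* encodes a WW-domain oxidoreductase with tumour suppressor functions, and its human counterpart spans the fragile site FRA16D. *Ccser1* encodes a coiled-coil serine-rich protein, and its human counterpart is one of the large genes at a fragile site on the long arm of its chromosome. Common fragile sites are stretches of long, late-replicating genes that break or stay unreplicated when DNA synthesis is slowed, and aphidicolin, an inhibitor of replicative DNA polymerases, is the classical agent that reveals them. Ends that cannot be sealed by NHEJ can be joined at short stretches of shared sequence (microhomology) by DNA polymerase θ, whose polymerase activity ART558 inhibits. The study places the *Ccser1* RDC in its constant replication timing class (CTR) and the *Wwox* RDC in its timing transition class (TTR).

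The bait guides are shown because they fix where every junction starts. Each is written 5′ to 3′ with its PAM in capitals, and each matched the GRCm38 chromosome once. None of the 4 cuts lies in either locus.
Chromosome 6 bait, minus strand, chr6:70950106-70950125: gagggttggaaatgctcgtaTGG
Chromosome 8 bait, minus strand, chr8:59477701-59477720: gtcgaccatatgctaatcttAGG
Chromosome 12 bait, plus strand, chr12:12994038-12994057: attccgccaaccctcgagatAGG
Chromosome 14 bait, plus strand, chr14:83268830-83268849: ggcttagttatagtaggggcTGG
The chromosome 6 cut lies 8.57 Mb above the end of *Ccser1*, and the chromosome 8 cut lies 54.8 Mb below the start of the *Wwox* window. For the densities, joining to a bait on the same chromosome was therefore kept apart from joining between chromosomes. Positions, strands and joint structure pool all baits unless a bait is named.

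Examples of the joints show how the classes of junction read. Each line gives 20 bases of the bait end, then the shared or inserted bases in capitals, then 20 bases of the prey. The first pair are the longest microhomologies with the same-chromosome bait in XP cells given aphidicolin, 6 bp in intron 8 of *Wwox* and 8 bp in intron 5 of *Ccser1*. The second pair come from XP cells given both drugs and carry insertions of 16 bp in *Wwox* and 5 bp in intron 3 of *Ccser1*, the median lengths among insertions with the same-chromosome bait.
*Wwox*, microhomology, prey chr8:114766745-114766770, minus strand: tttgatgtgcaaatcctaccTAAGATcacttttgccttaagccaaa
*Ccser1*, microhomology, prey chr6:61587571-61587598, plus strand: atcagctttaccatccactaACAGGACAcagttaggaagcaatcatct
*Wwox*, insertion, prey chr8:114792634-114792653, minus strand: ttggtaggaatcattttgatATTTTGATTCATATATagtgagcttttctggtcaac
*Ccser1*, insertion, prey chr6:61407977-61407996, minus strand: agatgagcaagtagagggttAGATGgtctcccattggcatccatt
Over 20 bases on both sides, 83.1% of the *Wwox* reads and 76.8% of the *Ccser1* reads matched GRCm38 exactly.

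Libraries held 133 to 37027 junctions, of which 28 to 8489 lay off the bait chromosome. The 3 libraries with fewer than 500 such junctions were left out of the tests. The share of junctions off the bait chromosome moved with the drugs. In XP cells with the chr6 bait it was 15.3% to 26.4% in DMSO, 34.8% to 65.5% in ART558, 40.3% in the single aphidicolin library and 46.0% to 58.1% with both drugs. The part of this shift in the densities below was not tested, and densities per 1000 of all junctions are given beside each result whose call or direction they change. A group of 4 libraries stood apart. In the WT libraries with both drugs and the chr6 bait, 6.08% to 23.9% of distinct junctions recurred in another library with the same bait end, prey position and strand, against 0.210% to 5.86% in the other 53 tested libraries. At *Ccser1* this touched 3 positions, which gave 8, 7 and 7 of the 38 junctions of these libraries. The most widely shared one, a plus-strand junction in intron 6 read 8 times in 3 libraries, gave the sequence shown next, with a 7-bp insertion, in 6 of those reads and in all 3 libraries.
*Ccser1*, shared insertion, prey chr6:61694495-61694514, plus strand: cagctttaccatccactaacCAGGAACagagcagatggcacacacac
One more *Ccser1* position recurred, in intron 4 in 1 aphidicolin library and 1 library with both drugs, both WT with the chr14 bait. At *Wwox* no position recurred between libraries, but 4 of the 20 WT junctions with both drugs were copies of 1 position in a single library. All 15 WT libraries came from 1 sequencing run, which held no XP library.

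Densities are given as JPTM, the junctions in the interval per 1000 junctions off the bait chromosome and per Mb. Junctions spread evenly over the other chromosomes would give 0.395 to 0.400 JPTM, depending on the bait. At *Wwox*, baits on other chromosomes gave a density near this level in XP cells without aphidicolin, and the highest XP mean in aphidicolin alone. In XP cells the mean was 0.411 ± 0.400 JPTM in DMSO (SD, n = 14 libraries), 0.375 ± 0.221 in ART558 (n = 6), 0.814 ± 0.512 in aphidicolin (n = 6) and 0.492 ± 0.442 with both drugs (n = 6). The 14 DMSO libraries ran from 0 through a median of 0.318 to 1.21 JPTM, with 4 of them at 0. The 6 aphidicolin libraries read 0.914 with the chr6 bait, 0.857 and 1.30 with the chr12 bait, and 0, 0.470 and 1.34 with the chr14 bait. The groups overlapped, because 1 aphidicolin library had no *Wwox* junction and 2 DMSO libraries of the chr6 bait exceeded 1.

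Averaged over the baits that held both treatments, aphidicolin exceeded DMSO at *Wwox* by 0.52 JPTM (two-sided exact permutation test of library labels within baits, p = 0.0317). After Benjamini-Hochberg adjustment over the 103 loci with at least 20 junctions, the adjusted p from these permutation tests was 0.0881. The same test on *Ccser1* gave a difference of 0.84 JPTM (p = 0.0175) with an adjusted permutation p of 0.0530. Both members thus had a permutation p below 0.05, as did 41.7% of all loci tested in that direction, and neither was among the 29.1% of loci with an adjusted p below 0.05. The *Wwox* call was lost when any of 7 libraries was left out. These were DMSO replicates 1, 3 and 4 with the chr14 bait (0.52 JPTM, exact permutation p = 0.05 each), aphidicolin replicate 3 with that bait (0.39, p = 0.0533), aphidicolin replicate 2 (0.44, p = 0.08) and DMSO replicate 1 (0.45, p = 0.08) with the chr12 bait, and the aphidicolin library with the chr6 bait (0.58, p = 0.0667). The *Ccser1* call held without any one of its 16 libraries. The median difference over the 103 loci was 0.37 JPTM, and 91 of them were higher in aphidicolin. Within sequencing runs that held both treatments, the differences were 0.49 JPTM at *Wwox* (exact permutation p = 0.0222) and 0.86 at *Ccser1* (exact permutation p = 0.0225). The *Wwox* call was lost over the gene body (exact permutation p = 0.0567), with counts pooled (p = 0.0517), without bait strata (p = 0.0739) and without the promoter and enhancer set (p = 0.0556, the smallest possible there).

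The *Wwox* window rose above its surroundings in aphidicolin. In 4 Mb of flanking sequence, 2 Mb on either side without other RDCs, the pooled density was 0.597 JPTM in DMSO and 0.338 in aphidicolin, against 0.537 and 0.947 in the window. The ratio of window to flank was 0.899 in DMSO and 2.80 in aphidicolin, and the log2 ratio differed by 1.62 between them (exact permutation p = 0.0225). For *Ccser1* the flanks gave 0.366 and 0.338 JPTM against 0.245 and 1.14 in the gene, and the log2 ratio differed by 1.97 (exact permutation p = 0.0325). With baits on other chromosomes, both loci thus lay below the density of their flanks in DMSO, *Ccser1* on 4 junctions, and above it in aphidicolin.

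At *Ccser1*, baits on other chromosomes yielded 4 junctions in 8 DMSO libraries of XP cells and 31 in 8 aphidicolin libraries. The means were 0.327 ± 0.490 JPTM in DMSO, 0.403 ± 0.305 in ART558 (n = 5), 1.14 ± 0.780 in aphidicolin and 0.483 ± 0.373 with both drugs (n = 5). The aphidicolin libraries read 1.85, 0.804 and 2.45 with the chr8 bait, 1.14 and 1.35 with the chr12 bait, and 0, 1.17 and 0.372 with the chr14 bait. The DMSO libraries read 1.17, 0 and 0 with the chr8 bait, 0.256 and 0.152 with the chr12 bait, and 0, 1.04 and 0 with the chr14 bait. With the chr12 bait both aphidicolin libraries lay above both DMSO libraries, as at 48.5% of 99 loci, and with the other baits the groups overlapped.

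**Figure D1:**
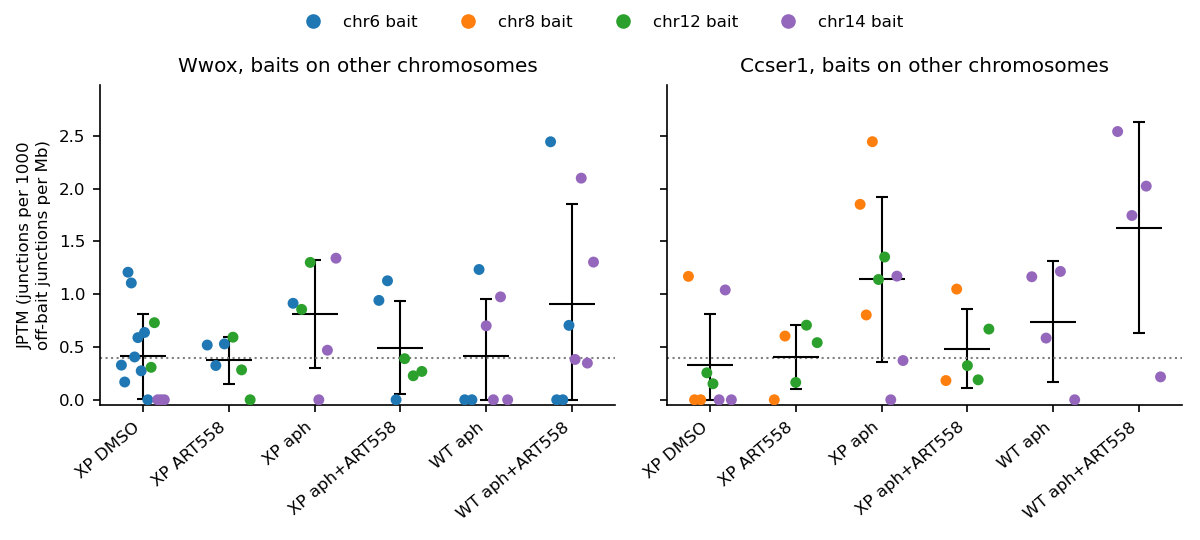
Junction density (JPTM, y axis) at *Wwox* and *Ccser1* in each tested library with a bait on another chromosome, by genotype and treatment (x axis; aph is aphidicolin) and coloured by bait. Horizontal bars are means and whiskers SD, drawn no lower than 0, and the dotted line marks the density of evenly spread junctions. The highest XP means are those in aphidicolin, 0.814 at *Wwox* and 1.14 at *Ccser1*.

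Adding ART558 to aphidicolin gave lower densities at both loci in XP cells, and the difference passed the test of a single locus only at *Ccser1*. The *Ccser1* libraries with both drugs read 0.182 and 1.05 JPTM with the chr8 bait and 0.324, 0.189 and 0.670 with the chr12 bait, so that the treatments overlapped with the former bait. With the latter they did not, as at 25.3% of 95 loci. The mean difference was -0.97 JPTM (exact permutation p = 0.04, adjusted permutation p = 0.245 over 98 loci). Of all 98 loci, 17.3% were lower with an unadjusted p below 0.05, and the median difference was -0.32. At *Wwox* the libraries with both drugs read 0.942, 1.13 and 0 with the chr6 bait and 0.389, 0.227 and 0.269 with the chr12 bait. Their difference from aphidicolin alone was -0.50 JPTM (exact permutation p = 0.2, adjusted permutation p = 0.456), and it ran from -0.78 without the aphidicolin library of the chr6 bait to -0.33 without replicate 3 with both drugs of that bait (exact permutation p = 0.1 and 0.167). With the chr12 bait all 3 *Wwox* libraries with both drugs lay below both aphidicolin libraries, one of the 25.3% of loci just given, whereas 2 of 3 with the chr6 bait lay above the single aphidicolin library.

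The *Ccser1* difference lost its call under several alternatives. Per 1000 of all junctions it was -0.11 JPTM (exact permutation p = 0.42), and as a log2 ratio to the flanks it was -1.28 (exact permutation p = 0.32). It also missed in a 1 Mb window (exact permutation p = 0.08) and in the central 500 kb (exact permutation p = 0.21), whereas it was -1.09 with junctions in RDC windows taken out of the total (exact permutation p = 0.04). It was also lost without any 1 of 8 of its 10 libraries, that is all but aphidicolin replicate 2 and replicate 3 with both drugs, both of the chr8 bait, with differences of -1.04 to -0.75 JPTM (exact permutation p = 0.05 to 0.125). No sequencing run held both treatments with baits on chromosomes 8 or 12, so the run and the treatment cannot be told apart there. ART558 without aphidicolin left *Wwox* 0.15 JPTM below DMSO (exact permutation p = 0.421), or 0.080 above it per 1000 of all junctions (exact permutation p = 0.199), and *Ccser1* 0.09 above it (exact permutation p = 0.85). Without single libraries the *Wwox* difference ran from -0.25 to -0.041, the ends being without DMSO replicates 1 and 2 of the chr12 bait. The *Ccser1* difference ran from -0.061 to 0.28, so that its direction changed. The cells with both drugs differed from ART558 alone by 0.12 JPTM at either locus (exact permutation p = 0.535 at *Wwox* and 0.667 at *Ccser1*). The *Wwox* value ran from 0.0081 to 0.29 when single libraries were left out, the ends being without replicates 2 and 3 with both drugs of the chr6 bait, and the *Ccser1* value from -0.098 to 0.34.

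In WT cells, both loci had higher mean densities with both drugs than with aphidicolin alone, without passing the test. *Wwox* averaged 0.416 ± 0.541 JPTM in 7 aphidicolin libraries, 4 of which had no junction, and 0.911 ± 0.943 in 8 libraries with both drugs. Per library, aphidicolin gave 0, 0 and 1.23 with the chr6 bait and 0.701, 0, 0.975 and 0 with the chr14 bait. Both drugs gave 2.44, 0, 0 and 0.705 with the chr6 bait and 0.382, 2.10, 0.348 and 1.30 with the chr14 bait, where the value of 2.44 stands for 4 copies of 1 junction. The difference over baits was 0.50 JPTM (exact permutation p = 0.282, adjusted permutation p = 0.548 over 25 loci) and 0.25 with each position counted once per library (exact permutation p = 0.464). Leaving out single libraries gave 0.22 to 0.70, the lowest without the library at 2.44.

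*Ccser1* with the chr14 bait read 1.17, 0.585, 1.22 and 0 JPTM in WT cells given aphidicolin and 2.54, 1.75, 2.02 and 0.217 with both drugs. Of the 4 libraries with both drugs, 3 exceeded every aphidicolin library, and the fourth lay among them. The means were 0.742 ± 0.572 and 1.63 ± 1.0 (n = 4 each), a difference of 0.89 (exact permutation p = 0.171, adjusted permutation p = 0.536). Without the library at 0.217 the difference was 1.36 with the smallest p that design allows (exact permutation p = 0.0286). Of the 25 loci tested in WT cells, 12% were higher with both drugs at an unadjusted p below 0.05, and neither member was among them. In aphidicolin, WT and XP cells differed by -0.34 JPTM at *Wwox* (exact permutation p = 0.543), or 0.044 per 1000 of all junctions (exact permutation p = 0.9), with -0.55 to -0.16 when single libraries were left out. At *Ccser1* they differed by 0.23 (exact permutation p = 0.686), with -0.030 to 0.56 when single libraries were left out. Line, run and origin cannot be told apart from genotype at either locus.

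Ordered by mean, the *Wwox* densities ran from WT cells with both drugs through XP aphidicolin, XP with both drugs, WT aphidicolin and XP DMSO to XP ART558, and each step was smaller than the SD on either side of it. The *Ccser1* order was WT with both drugs, XP aphidicolin, WT aphidicolin, XP with both drugs, XP ART558 and XP DMSO. There too each step was smaller than the SD of its neighbours. These orders mix baits, since the groups did not use the same ones.

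With a bait on the same chromosome, mean densities in XP cells were higher than with other baits in each treatment. The means ran from 0.873 against 0.411 JPTM at *Wwox* in DMSO, the former from 2 junctions, to 12.9 against 1.14 at *Ccser1* in aphidicolin, and were not tested against each other. In WT cells given aphidicolin the order at *Ccser1* was the opposite, with no junction for the chr6 bait and a mean of 0.742 JPTM for the chr14 bait. For *Wwox* with the chr8 bait, XP cells read 1.41, 1.21 and 0 JPTM in DMSO and 6.68, 5.80 and 8.82 in aphidicolin. The 3 aphidicolin libraries lay above every DMSO library, with means of 7.10 ± 1.55 and 0.873 ± 0.762, from 33 junctions against 2. The difference of 6.23 had the smallest p that 3 libraries against 3 allow (exact permutation p = 0.1), and 87.5% of the 8 RDC windows on that chromosome were likewise higher without overlap. The 2 tested libraries with both drugs read 2.19 and 1.01 JPTM, below all aphidicolin libraries (exact permutation p = 0.1, the smallest possible), and the treatments were separated in the same direction at 100% of the 8 windows. The *Wwox* flanks moved too, from 1.31 JPTM in aphidicolin to 0.352 with both drugs, so that the ratio of window to flank was 5.28 and 4.67. Per 1000 of all junctions the difference between these treatments was -0.40 JPTM (exact permutation p = 0.5). The 2 libraries given ART558 alone read 2.67 and 0 JPTM, from 2 junctions in all. They overlapped the DMSO libraries (a difference of 0.46, exact permutation p = 0.9) and the libraries with both drugs, which averaged 1.60 against 1.33 JPTM (exact permutation p = 1). When single libraries were left out, ART558 minus DMSO ran from -0.87 to 1.79 JPTM and both drugs minus ART558 from -1.07 to 1.60.

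For *Ccser1* with the chr6 bait, 9 DMSO libraries of XP cells ran from 2.01 through a median of 2.48 to 4.79 JPTM. The single aphidicolin library read 12.9 JPTM from 68 junctions, with a Poisson interval of 10.0 to 16.4 at 95% that covers counting error only. It lay above all DMSO libraries (exact permutation p = 0.1, the smallest possible), as it did at 50% of 12 RDC windows on chromosome 6. The libraries with both drugs read 9.40, 6.0 and 4.24 JPTM and lay below that library, as at 90.9% of 11 windows (exact permutation p = 0.25, the smallest possible). The *Ccser1* flanks read 1.36 JPTM in aphidicolin and 0.802 with both drugs, so that the ratio of gene to flank was 9.48 and 7.99. As a log2 ratio to the flanks the difference was -0.24 (exact permutation p = 1). ART558 alone gave 0.863, 0.810 and 1.54 JPTM, all below the DMSO libraries, as at 50% of 12 windows. This difference of -1.78 had an exact permutation p of 0.00909 and an adjusted permutation p of 0.0273 over the 12 windows, of which 75% had a p below 0.05 in that direction and all 12 were lower. Beside it, the *Ccser1* flanks read 1.82 JPTM in DMSO and 0.906 in ART558, the log2 ratio to the flanks differed by -0.27 (exact permutation p = 0.495), and per 1000 of all junctions the difference was -0.09 (exact permutation p = 0.518). The call was lost without ART558 replicate 1 (-1.68) or replicate 2 (-1.65, exact permutation p = 0.0545 each). Within the 1 run that held both treatments, it was -1.21 (exact permutation p = 0.1, the smallest possible). The libraries with both drugs lay above those with ART558 alone (5.47, exact permutation p = 0.1, the smallest possible), as at 54.5% of 11 windows.

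In WT cells the chr6 bait found no *Ccser1* junction in 3 aphidicolin libraries, among 3524 junctions off the bait chromosome, which allows a pooled density of up to 0.708 JPTM taking 3 junctions as the limit of a count of 0, or 0.870 by the 95% Poisson interval. The 4 libraries with both drugs read 4.57, 17.5, 5.08 and 2.35 JPTM, and all lay above 0. Their junctions numbered 9, 16, 9 and 4 but occupied 5, 6, 3 and 4 positions. Because they share junctions, these libraries may not be independent of each other, and the tests count them as 4. The difference was 7.38 JPTM (exact permutation p = 0.0571), 4.28 with each position counted once per library (exact permutation p = 0.0571) and 4.85 without junctions found in several libraries (exact permutation p = 0.0857). Of the 3 chromosome 6 windows with enough junctions, 33.3%, which is *Ccser1* itself, separated the treatments. Over the flanks, which held 23 junctions in aphidicolin and 19 with both drugs, the density went from 2.16 to 1.19 JPTM. The library at 17.5 JPTM had 760 junctions off the bait chromosome, and without it the difference was 4.00 (exact permutation p = 0.1).

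**Figure D2:**
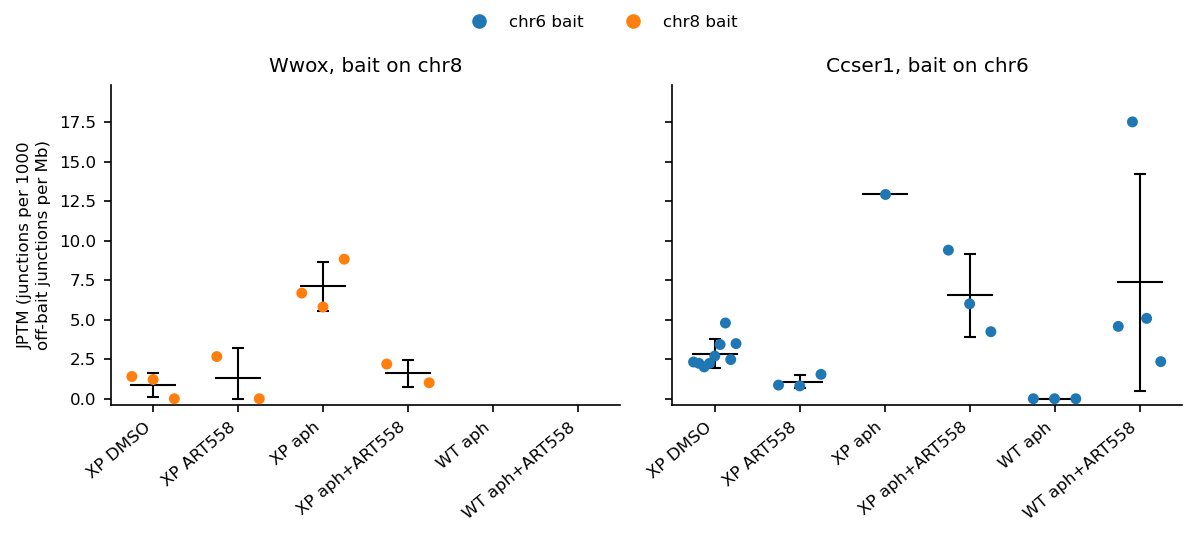
Junction density (JPTM, y axis) with the bait on the locus' own chromosome, by genotype and treatment (x axis), for *Wwox* with the chr8 bait and *Ccser1* with the chr6 bait. Points are libraries, horizontal bars means and whiskers SD drawn no lower than 0; WT cells had no chromosome 8 bait. All 3 *Wwox* libraries in aphidicolin lie above 5, and the single *Ccser1* library in aphidicolin lies at 12.9.

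Nearly all of either interval is intron, and so were nearly all junction sites. *Wwox* (ENSMUSG00000004637.15, chr8:114439655-115352708, plus strand) spans 913 kb, and intron 8 of its longest coding transcript alone covers 639 kb. Of the 148 junctions, 111 lay in intron 8 (75%, 95% Wilson interval 67.5% to 81.3%), which makes up 58.8% of the window. A further 20 lay in intron 5, 11 lay outside the gene, and none lay in an exon, where exons of all transcripts cover 0.910% of the window. In *Ccser1* (ENSMUSG00000039578.17, plus strand, 1203 kb) intron 9 held 119 of 439 junctions (27.1%, 23.2% to 31.5%) and makes up 35.2% of the gene. Introns 8, 6, 4 and 7 held 64, 63, 51 and 48, and 5 junctions (1.14%) lay in exons, which cover 0.801%. The *Wwox* window also takes in *Clec3a* and part of *Vat1l*, which lie between its lower edge and *Wwox*.

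Among junctions of XP cells given aphidicolin at *Wwox*, all baits pooled, the fullest 50 kb bin, 410 to 460 kb from the gene start, held 9 of 54 junctions, and the interquartile range was 329 to 542 kb. In DMSO the fullest bin held 4 of 31, and the interquartile range was 216 to 644 kb. The baits differ between these sets, since the chr8 bait gave 33 of the aphidicolin junctions and 2 of the DMSO junctions. With the chr8 bait the aphidicolin range was 353 to 490 kb. With other baits it was 283 to 744 kb in aphidicolin and 206 to 640 kb in DMSO, so that the narrower range was not seen there. At *Ccser1* the spread was broader. The interquartile range of the 99 aphidicolin junctions was 396 to 814 kb from the gene start, against 287 to 824 kb for 148 DMSO junctions, and the fullest bins held 8 and 11 junctions.

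Strand and position went together in XP cells given aphidicolin. A minus-strand junction here retains the prey end that runs towards lower coordinates, the 5′ side of both genes, and a plus-strand junction the end that runs towards higher coordinates. In XP cells given aphidicolin, minus-strand junctions of *Wwox* had a median position of 358 kb from the gene start and plus-strand ones of 475 kb, a gap of 117 kb. Below the midpoint of the window 13 of 19 junctions were minus (68.4%, Wilson 46.0% to 84.6%), and above it 10 of 35 (28.6%, 16.3% to 45.1%). At *Ccser1* the medians were 460 and 705 kb, a gap of 246 kb, with 32 of 51 minus below the midpoint of the gene (62.7%, 49.0% to 74.7%) and 13 of 48 above it (27.1%, 16.6% to 41.0%). The same order held in 4 of 4 libraries at *Wwox* and in 3 of 3 at *Ccser1* that had at least 3 junctions of each strand.

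In DMSO the shares of minus-strand junctions were closer. They were 50% and 47.1% below and above the midpoint at *Wwox* (n = 14 and 17 junctions) and 54.2% and 40% at *Ccser1* (n = 83 and 65), with the medians in the aphidicolin order in 5 of 9 *Ccser1* libraries. In XP cells given ART558 alone, 9 of 12 *Ccser1* junctions were minus below the midpoint (75%) and 1 of 8 above it (12.5%). Their medians were 409 kb for minus and 631 kb for plus, the order seen in aphidicolin. At *Wwox* ART558 alone gave 2 of 3 and 3 of 7, with medians of 442 and 398 kb, the opposite order. With both drugs, the minus-strand shares in XP cells were 50% and 40% below and above the midpoint at *Wwox* (n = 12 and 15) and 53.6% and 26.7% at *Ccser1* (n = 56 and 45). The *Wwox* shares pool baits with opposite orders. With the chr8 bait 5 of 6 were minus below the midpoint and 3 of 8 above it, with medians of 353 kb for minus and 554 kb for plus. With other baits they were 1 of 6 and 3 of 7, with medians of 447 and 268 kb. In WT cells given aphidicolin, the *Wwox* order was the opposite, with medians of 636 kb for minus and 403 kb for plus from 6 junctions. These stood for 4 positions, with medians of 468 and 403 kb when each was counted once, and at *Ccser1* they were 371 and 848 kb from 9 junctions. WT cells with both drugs had 58.8% and 14.3% at *Ccser1* (n = 34 and 28), or 66.7% and 25% with each position counted once (n = 21 and 16). At *Wwox* they had 38.5% and 100%, the opposite order, from 13 and 7 junctions of which 4 were copies of 1. No test was made of these shares, since junctions of a library are not replicates.

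**Figure D3:**
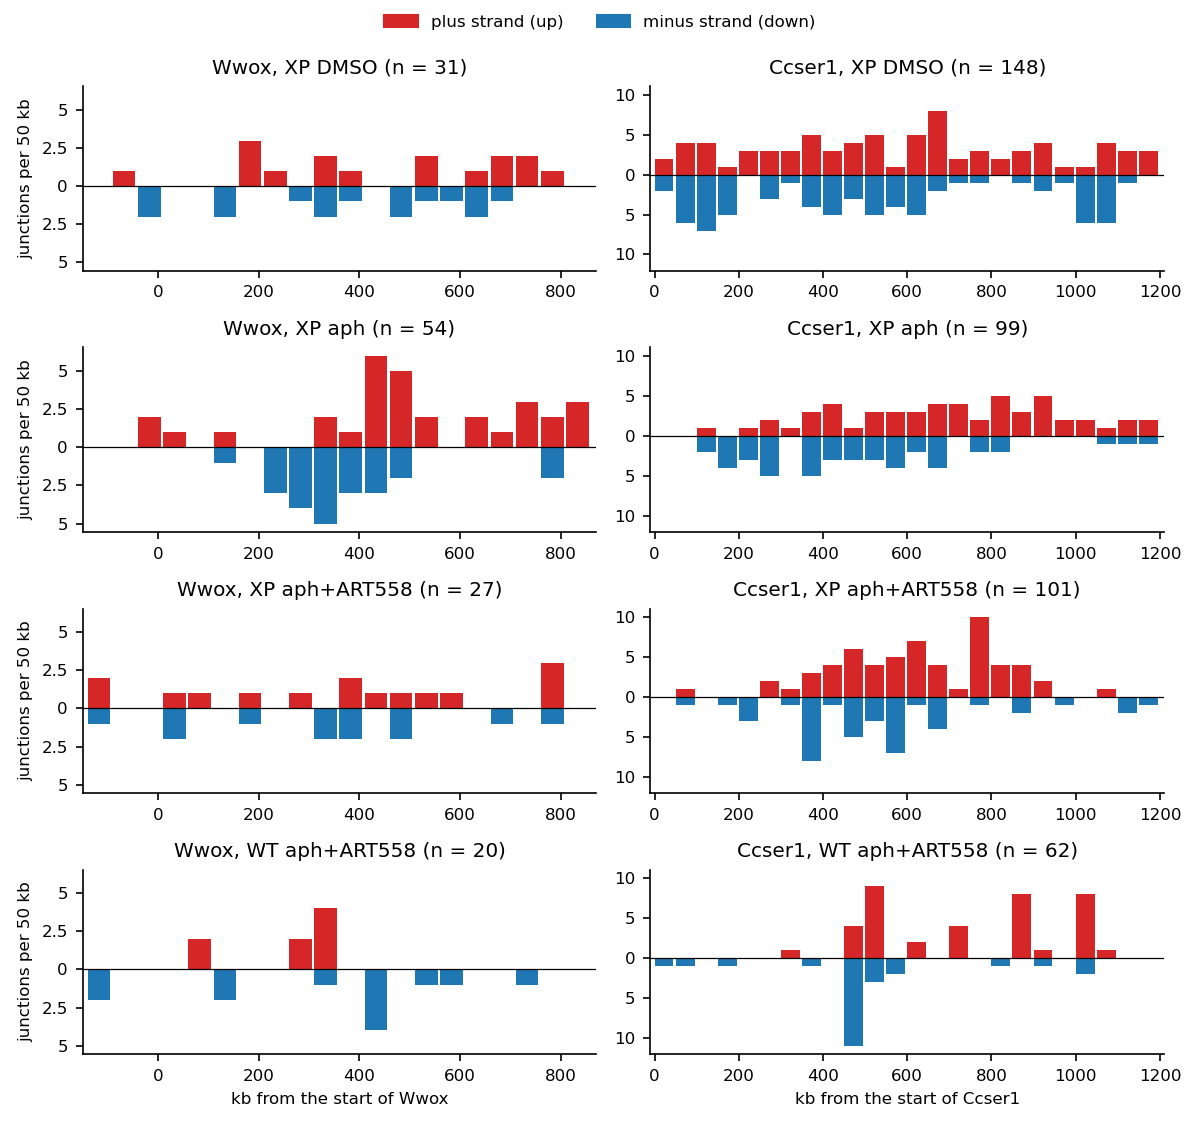
Junctions per 50 kb bin (y axis) along *Wwox* and *Ccser1* (x axis, kb from the gene start) in 4 conditions, with all baits pooled. Plus-strand junctions are drawn upwards and minus-strand junctions downwards, and n is the number of junctions. In XP aphidicolin the minus-strand bars sit lower along both genes than the plus-strand bars, with medians of 358 against 475 kb in *Wwox* and 460 against 705 kb in *Ccser1*.

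At both loci, larger shares of joints were direct or carried insertions in XP cells given both drugs than in those given aphidicolin, but no such difference passed a test over libraries. Direct joints, with 0 bp shared, made up 10 of 42 *Wwox* junctions with 0 to 10 bp in aphidicolin (23.8%, Wilson 13.5% to 38.5%) and 7 of 14 with both drugs (50%, 26.8% to 73.2%), over the baits that held both treatments. The difference was 26.2 percentage points (exact permutation p = 0.198). At *Ccser1* direct joints made up 6 of 73 (8.22%, 3.82% to 16.8%) and 14 of 54 (25.9%, 16.1% to 38.9%), which is 17.7 points more (exact permutation p = 0.2). Without the single aphidicolin library of the chr6 bait it was 7.29 points (exact permutation p = 0.6). Over all junctions off the bait chromosome, which hold no same-chromosome joins, the shares in XP cells were 24.5% and 33.2%. Most direct joints at *Wwox* in aphidicolin came with baits on other chromosomes. The 2 libraries with the chr12 bait had 2 of 2 and 5 of 8 and the library with the chr6 bait had 1 of 2, against 2 of 30 with the chr8 bait, and with the chr6 and chr12 baits alone the difference was -16.7 points (exact permutation p = 0.325).

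Insertions, bases between the aligned bait and prey that may still resemble nearby sequence, made up 8 of 50 *Wwox* junctions in aphidicolin (16.0%, Wilson 8.34% to 28.5%) and 12 of 27 with both drugs (44.4%, 27.6% to 62.7%). This comparison was added after the classes had been seen. The difference of 28.4 points did not pass (exact permutation p = 0.085), and without replicate 1 of aphidicolin with the chr12 bait, which held 3 of the insertions, it was 33.3 points (exact permutation p = 0.0188). At *Ccser1* they made up 22 of 95 (23.2%, 15.8% to 32.6%) and 47 of 101 (46.5%, 37.1% to 56.2%), which is 23.4 points more (exact permutation p = 0.188). With both drugs, 45 of the 47 *Ccser1* insertions came with the chr6 bait, where the 3 libraries with both drugs had 17 of 36, 15 of 32 and 13 of 18 and the single aphidicolin library had 14 of 68. With baits on other chromosomes the difference was -16.3 points (exact permutation p = 0.5). In the library with 13 of 18 several were repeats, and counted once per position they were 7 of 12. Over all junctions off the bait chromosome, insertions were 13.4% in aphidicolin and 16.4% with both drugs. The matching shares with both drugs and baits on other chromosomes were 5 of 13 (38.5%) at *Wwox* and 2 of 15 (13.3%) at *Ccser1*, the latter below the share over all junctions. Counted once per position they were 3 of 11 (27.3%) and 1 of 14 (7.14%). Replicate 2 of the chr6 bait held 3 of the 5 *Wwox* insertions, or 1 when counted once. Median insertion lengths with both drugs were 14.5 bp at *Wwox* and 4 bp at *Ccser1*.

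The remaining conditions filled in the range. In DMSO, microhomology of at least 4 bp was found in 12 of 31 *Wwox* junctions and 32 of 148 *Ccser1* junctions, and the longest stretch was 14 bp at both loci. In aphidicolin the longest was 6 bp at *Wwox* and 8 bp at *Ccser1*. In XP cells given ART558 alone, 6 of 18 *Ccser1* junctions with 0 to 10 bp were direct, against 12 of 124 in DMSO. With the chr6 bait these were 5 of 10 against 10 of 120, and with other baits 1 of 8 against 2 of 4. At *Wwox* they were 1 of 10 in ART558 and 4 of 24 in DMSO. Over all junctions off the bait chromosome, which hold no same-chromosome joins, 6988 of 19810 joints with 0 to 10 bp were direct in ART558 (35.3%) and 6272 of 44701 in DMSO (Wilson 13.7% to 14.4%). In WT cells, *Ccser1* junctions were direct in 6 of 9 with aphidicolin and in 19 of 42 with both drugs, or 11 of 28 with each position counted once, and at most 4 bp were shared. *Wwox* junctions of WT cells were direct in 0 of 4 with aphidicolin and in 3 of 16 with both drugs.

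**Figure D4:**
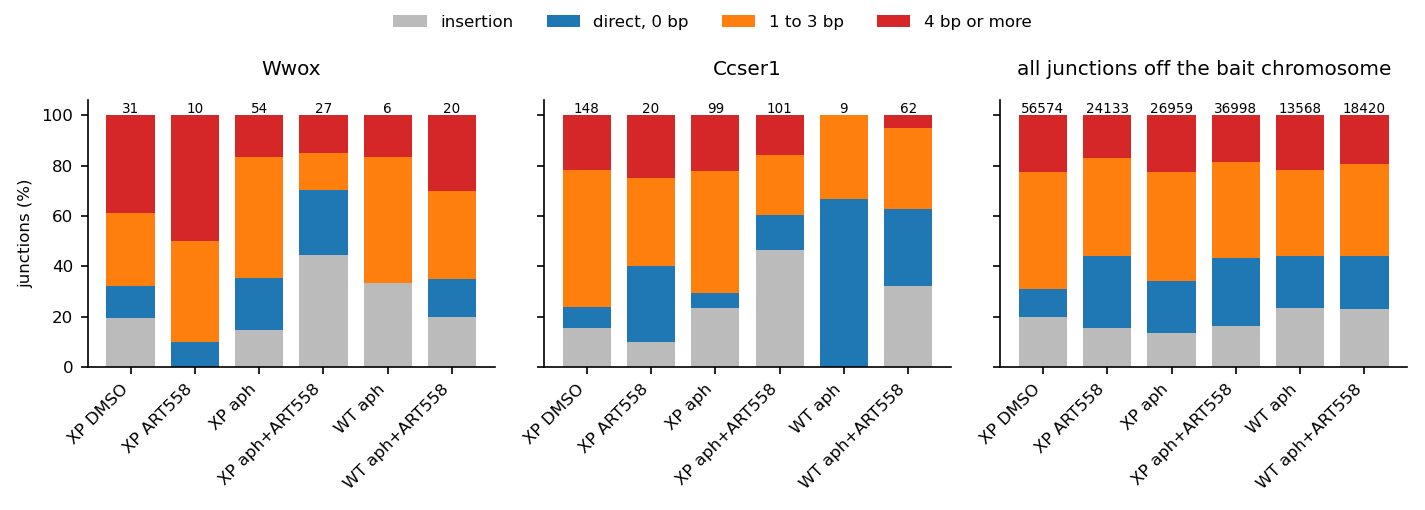
Share of junctions (%, y axis) that carry an insertion, are direct (0 bp), share 1 to 3 bp or share at least 4 bp, by genotype and treatment (x axis), with the number of junctions above each bar. The locus panels pool all baits, the same-chromosome bait included, whereas the third panel holds only junctions off the bait chromosome, so the panels are not matched. In XP cells with both drugs insertions are 44.4% at *Wwox* and 46.5% at *Ccser1* with all baits, and 38.5% and 13.3% with baits on other chromosomes, beside 16.4% in the third panel. Counted once per position, those with baits on other chromosomes are 27.3% and 7.14%.

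Other genes at human common fragile sites were read from the same libraries with baits on other chromosomes. The list held 10 loci of 9 genes (*Fhit*, *Park2*, *Immp2l*, *Dmd* with 2 windows, *Dpyd*, *Auts2*, *Lrp1b*, *Rora* and *Macrod2*). In XP cells aphidicolin exceeded DMSO at 9 loci and fell short at 1, with 4 of 10 higher at an unadjusted permutation p below 0.05 and 2 with an adjusted p below 0.05, beside the 41.7% and 29.1% of all loci given above. Those shares cover loci with at least 20 junctions, and the transition-timed *Dmd* window, which is among the 4, had 19. The largest difference was at *Auts2*, a regulator of neuronal development, with 3.77 JPTM against 0.724 (adjusted permutation p = 0.00215). *Lrp1b*, a large lipoprotein receptor gene, had 0.864 against 0.103 (adjusted permutation p = 0.0211). The lowest was *Fhit*, the gene at the human fragile site FRA3B, with 0.314 against 0.348 JPTM (exact permutation p = 0.75). The median difference of the list was 0.33 JPTM, beside 0.37 over all 103 loci, and *Wwox* at 0.52 and *Ccser1* at 0.84 lay above both.

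With ART558 added to aphidicolin in XP cells, 8 of the 10 loci were lower and 2 higher, with a median difference of -0.22 JPTM, beside 83 lower of all 98 loci and a median of -0.32. The 98 are loci with at least 20 junctions, which 9 of the 10 had. *Auts2* differed most, by -2.25 JPTM (exact permutation p = 0.0025, adjusted permutation p = 0.184), and the upper end was the transition-timed *Dmd* window at 0.11. In WT cells 8 loci were higher and 2 lower with both drugs, beside 20 higher of the 25 loci tested there. The 25 are loci with at least 20 junctions, which only 3 of the 10 had. The differences ran from 0.90 JPTM at *Auts2* (exact permutation p = 0.0371, adjusted permutation p = 0.347) to -0.50 at *Rora* (exact permutation p = 0.0796). *Auts2* alone had an unadjusted permutation p below 0.05 there.

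By their group means over genotype, treatment and bait, the RDC most like *Wwox* among 103 with at least 50 junctions was *Ccser1* (Pearson r = 0.830 over 8 groups), followed by *Il1rapl1* (r = 0.663, 14 groups) and *Fhod3* (r = 0.613, 14 groups). For *Ccser1* they were *Adgrl3* (r = 0.885 over 12 groups), *Ptprk* (r = 0.845, 12 groups) and *Wwox*. These correlations describe group means that share libraries and depth. The one between *Wwox* and *Ccser1* rests on fewer groups than the others, so the ranks compare unlike sets of groups.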

How the data were processed

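The authors trimmed and demultiplexed the LAM-HTGTS reads, aligned them to mm10/GRCm38 with Bowtie2 in the HTGTS pipeline and deposited, per library, a list of junctions. Its columns are of other kinds than expression units: per the file headers they hold prey coordinates, strand, and bait and prey positions in the read, without counts or normalization. Here every junction on an assembled chromosome was used, repeats included. Reads carry no molecular identifiers, so intervals cover counting error only. Microhomology was the overlap of bait and prey in the read. The 57 libraries with at least 500 junctions off the bait chromosome (668 to 8489) entered the tests. RDC windows of 1 Mb came from the positions in the study's RDC names, and *Fhit* and *Macrod2* were read over their gene bodies (GENCODE M21). Library labels were permuted exactly and two-sided within baits, with Benjamini-Hochberg adjustment over loci with at least 20 junctions. This procedure was tested on simulated data. There were 24 density comparisons and 4 of joint structure. Named genes were the 2 members, the fragile-site list and the 3 RDCs most like each member. One locus of the list and of that ranking is not reported here. Alternatives covered totals, intervals, repeats, runs, pooling, flanks, replicate blocks and left-out libraries. Members, lists and tests were chosen with earlier results of these data known. Repli-seq libraries were not used here. Sequencing runs were read from read names (11 runs), and 1 incomplete line was dropped. Python 3.11.15, NumPy 2.4.6, pandas 2.3.3, SciPy 1.17.1 and matplotlib 3.10.9 were used.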

Additional observations from a re-analysis of the deposited data

Results flagged for a closer look

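With the chromosome 6 bait, the *Ccser1* libraries with both drugs lay above those with aphidicolin alone in WT cells (exact permutation p = 0.0571) and below the single such library in XP cells (exact permutation p = 0.25, the smallest possible). Neither difference passed the test, and as a log2 ratio to the flanks the XP difference was -0.24 (exact permutation p = 1). The WT effect minus the XP effect was 13.8 JPTM. Permuting genotype labels within each treatment gave an exact permutation p of 0.129 with 3 and 4 WT libraries against 1 and 3 XP libraries, so that the difference between the genotypes did not pass the test. It rests on 1 XP aphidicolin library and on WT libraries in which 22 of 38 junctions lay at positions shared between libraries. At *Wwox* the same contrast was 0.60 JPTM (exact permutation p = 0.586).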

How the results depend on the processing

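Of 296 alternatives to 28 differences, apart from left-out libraries, 260 kept the direction and the side of the threshold, 19 lost the call, 1 gained it and 16 reversed; every reversed value had an exact permutation p above 0.05, as did its original. The cause was not tested. For *Wwox*, XP aphidicolin minus DMSO lost its call over the gene body (0.50 JPTM), with counts pooled (0.52), without bait strata (0.40) and against DMSO outside the promoter and enhancer set (0.61, exact permutation p = 0.0556, the smallest possible). For *Ccser1*, both drugs minus aphidicolin in XP lost it per 1000 of all junctions (-0.11), in a 1 Mb window (-0.88), the central 500 kb (-0.98), pooled (-0.90), without strata (-0.66) and as a log2 ratio to flanks (-1.28). With the chr6 bait, ART558 minus DMSO at *Ccser1* lost it per all junctions (-0.089), in the central 500 kb (-1.61), within runs or against DMSO outside that set (-1.21, exact permutation p = 0.1, the smallest possible) and against flanks (-0.27), whereas the WT difference gained one against flanks (6.54).

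The replicate numbers were not taken as pairs. Of same-numbered pairs 9 of 41 correlated above 0.1, beside 18 of 91 different-numbered pairs, which does not settle whether libraries were paired. With the replicate block, the aphidicolin minus DMSO difference was 0.61 at *Wwox* and 0.76 at *Ccser1*, *Ccser1* with both drugs minus aphidicolin was -1.0, and ART558 minus DMSO with the chr6 bait was -1.44, each without a call, although the smallest p possible with the block was above 0.05 for all of these but the *Ccser1* aphidicolin minus DMSO difference (exact permutation p = 0.0625). The block reversed ART558 minus DMSO (0.046 at *Wwox*, -0.026 at *Ccser1*) and both drugs minus ART558 at *Ccser1* (-0.16).

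Other reversals were, at *Wwox*, ART558 minus DMSO (0.080) and WT minus XP in aphidicolin (0.044) per all junctions, WT minus XP with both drugs (-0.16) and ART558 minus DMSO with the chr8 bait (-0.21) with positions counted once, and both drugs minus ART558 with that bait in the central 500 kb (-0.81). At *Ccser1*, WT minus XP reversed in aphidicolin without strata (-0.40), and with the chr6 bait and both drugs with positions counted once (-1.88), centrally (-2.10), pooled (-0.44), against flanks (-0.67) and without shared junctions (-2.17). On other chromosomes, direct joints at *Wwox* (-16.7 points) and insertions at *Ccser1* (-16.3 points) reversed.

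Leaving out single libraries changed the call or direction of 11 density differences and 2 of insertions. At *Wwox*, aphidicolin minus DMSO in XP ranged over 0.39 to 0.62 JPTM and WT minus XP with both drugs over -0.45 to 0.36. With the chr8 bait, ART558 minus DMSO ranged over -0.87 to 1.79 and both drugs minus ART558 over -1.07 to 1.60. At *Ccser1*, the ranges were -1.19 to -0.75 for both drugs minus aphidicolin, -0.061 to 0.28 for ART558 minus DMSO, -0.098 to 0.34 for both drugs minus ART558, 0.59 to 1.36 for both drugs minus aphidicolin in WT, and -0.030 to 0.56 for WT minus XP in aphidicolin. With the chr6 bait they were -2.02 to -1.54 for ART558 minus DMSO and -2.54 to 2.51 for WT minus XP with both drugs. Insertions ranged over 18.8 to 36.9 points at *Wwox* and -16.3 to 25.8 at *Ccser1*.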
